A study of Danio rerio with 6 samples.

Results

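Zebrafish cardiac endothelial cells were examined for the hypoxia-inducible factors (HIFs), their dimer partners and their oxygen-sensing regulators. The members were chosen by gene name (EPAS1, HIF1A, its like copies and inhibitor HIF1AN, HIF3A, ARNT, EGLN1 to EGLN3 and VHL, with zebrafish copy letters), which took 15 of 32520 gene rows. Of the 15 rows, 13 had at least 1 count, 2 had none and 4 had enough counts to be tested. EPAS1 was picked for its rise in the comparison described here, so its values are given as a description with no test.

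HIFs are transcription factors made of an oxygen-labile alpha subunit and a stable beta subunit, ARNT or ARNT2. When oxygen is present, the EGLN prolyl hydroxylases mark the alpha subunit, and the VHL ubiquitin ligase then directs its destruction, while the asparaginyl hydroxylase HIF1AN blocks its binding to co-activators. HIF-1 alpha is found in most cells, whereas HIF-2 alpha, encoded by EPAS1, was first described as an endothelial PAS protein. Because much of this control acts on the protein, the RNA counts reported here say nothing of how much HIF protein the cells held.

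RNA-seq counts were available for 3 DNK and 3 CtrlK libraries of sorted endothelial cells, taken 7 days after the heart ventricle of adult fish of strain Tu had been partly resected. DNK fish carried 3 transgenes: DN-xBrg1, a dominant-negative form of Xenopus Brg1, behind the ubi promoter and a loxp-flanked DsRed stop; kdrl:CreER; and kdrl:eGFP. Brg1 is the ATPase of a chromatin remodelling complex, and Cre activity in kdrl-expressing endothelium removes the stop. CtrlK fish carried the same DN-xBrg1 transgene with its stop intact and kdrl:eGFP, but no kdrl:CreER. Per the treatment protocol both groups received 4-HT for 3 days before resection, although other labels call CtrlK untreated or wild-type siblings. An effect of CreER itself, and of 4-HT if CtrlK went without it, cannot be told apart from that of dominant-negative Brg1. Ventricles of about 15 hearts were dissociated, and green cells were sorted. Whether each library came from its own pool of fish is not stated in the labels; the spread that the p-values rest on may therefore be technical.

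The libraries held 200646 to 227373 gene counts in DNK and 174371 to 216713 in CtrlK. These were 1.47% to 1.48% of all reads in DNK and 1.08% to 1.27% in CtrlK, so the groups did not overlap in the share assigned to genes. A floor of 3 counts in 1 library corresponded to 16.2 to 19.4 normalized CPM (counts scaled to a common library size), which covers counting error only. The Xenopus transgene has no row of its own here, so the labels were not checked by it. The zebrafish SMARCA4 row (ENSDARG00000077226), which encodes the fish's own Brg1, averaged 54.8 ± 19.7 CPM in DNK and 54.2 ± 19.9 CPM in CtrlK (SD, n = 3 each). A second SMARCA4 row (ENSDARG00000104339) had 2, 1 and 1 counts in DNK and 5, 7 and 6 in CtrlK, too few to test. The reporter and driver gene kdrl averaged 75.6 ± 11.4 CPM in DNK and 49.8 ± 11.5 CPM in CtrlK (SD, n = 3 each). Its log2 fold change of 0.60 ± 0.47 (SE) did not pass the test (edgeR quasi-likelihood, Benjamini-Hochberg adjusted p = 0.452) and was -0.19 with scaling to the 200 most abundant genes.

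HIF-2 alpha had the most counts of all members, which compares counts and not levels, since gene lengths were not used. The EPAS1 row ENSDARG00000057671 had 587, 490 and 401 counts in the DNK libraries, against 173, 164 and 264 in the CtrlK libraries. After scaling for library size this was 3582, 2893 and 2594 CPM in DNK and 1104, 904 and 1424 CPM in CtrlK. The lowest DNK library lay above the highest CtrlK library, so the groups did not overlap. The means were 3023 ± 506 CPM in DNK and 1144 ± 262 CPM in CtrlK (SD, n = 3 each). The fitted difference was 2.64-fold, or 1.40 ± 0.27 (SE) on the log2 scale. That log2 fold change was between 1.28, without CtrlK replicate 2, and 1.62, without CtrlK replicate 3, when each library was left out in turn. In bulk RNA, a different share of the cells that carry a transcript and a different amount of RNA per cell cannot be told apart.

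A second row bears the name EPAS1 (ENSDARG00000008697), and the tables used here do not say which of the zebrafish copies each row is. It had 0, 6 and 2 counts in the DNK libraries and 0 in every CtrlK library. Over each group that was 8 counts in DNK and 0 in CtrlK. With CtrlK set at a floor of 3 counts over the group, the ratio was 2.86, which takes the DNK counts as exact. The exact counting interval of the depth-adjusted ratio began lower, at 1.83, and had no upper end. That interval covers counting error only. This row was too low to pass the filter on counts, and 1 of its 3 DNK libraries had none.

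**Figure D1:**
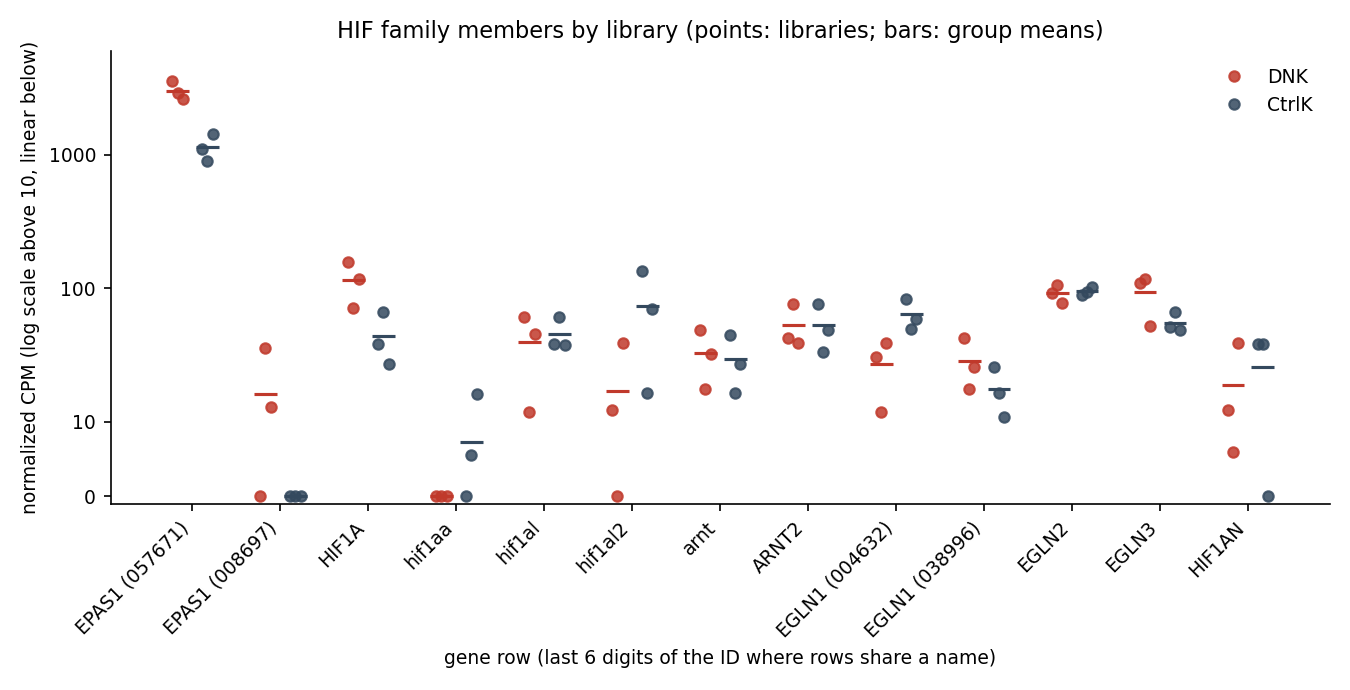
Normalized CPM of the 13 HIF family rows with counts, on a scale that is logarithmic above 10 and linear below; each point is 1 library (DNK in red, left; CtrlK in dark blue, right) and each bar a group mean. The DNK libraries of EPAS1 (ENSDARG00000057671, 2594 to 3582 CPM) all lie above its CtrlK libraries (904 to 1424 CPM). Most other members overlap between the groups, as do most tested genes (16.2% lie wholly above and 14.6% wholly below).

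The HIF-1 alpha and alpha-like rows did not all lie in the same direction. The HIF1A row ENSDARG00000034293, the best counted of them, had 26, 12 and 18 counts in the DNK libraries, against 6, 12 and 5 in the CtrlK libraries. Scaled for library size this was 159, 70.9 and 116 CPM in DNK and 38.3, 66.2 and 27.0 CPM in CtrlK. The groups did not overlap on that scale, but DNK replicate 2 and CtrlK replicate 2 lay close together at 12 counts each. The means were 115 ± 43.9 CPM in DNK and 43.8 ± 20.2 CPM in CtrlK (SD, n = 3 each), and the log2 fold change was 1.38 ± 0.51 (SE). HIF1A did not pass the test (edgeR quasi-likelihood, Benjamini-Hochberg over all tested genes, adjusted p = 0.107, between 0.0713 and 0.404 over the alternatives other than the covariate one). The 95% interval of its log2 fold change was 0.30 to 2.46 and took in the value of EPAS1, but the difference between the 2 genes was not tested.

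The remaining rows of HIF-1 alpha and its like copies had fewer counts. The like copy hif1al2 had 2, 0 and 6 counts in DNK, against 21, 3 and 13 in CtrlK. Its libraries overlapped between the groups, and DNK held 8 counts in all against 37 in CtrlK, a depth-adjusted ratio of 0.232 (95% counting interval 0.0933 to 0.506). That interval covers counting error only. With no filter on low counts its adjusted p was 0.200 (edgeR quasi-likelihood). The copy hif1al had 10, 2 and 7 counts in DNK and 6, 11 and 7 in CtrlK, and hif1aa had 0 in every DNK library and 0, 1 and 3 in CtrlK. Summed over these 4 rows, HIF-1 alpha and its like copies reached 172 ± 78.7 CPM in DNK and 170 ± 35.0 CPM in CtrlK (SD, n = 3 each). Within that sum HIF1A (56 counts in DNK, 23 in CtrlK) and hif1al2 (8 and 37) lay in opposite directions. The sum therefore does not describe HIF1A alone. No row bore the name HIF3A, and names alone do not say which mammalian alpha gene each like copy matches.

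The beta partners were low in both groups. ARNT2, which pairs with alpha subunits in place of ARNT, had 7, 13 and 6 counts in DNK and 12, 6 and 9 in CtrlK. The row arnt, the common beta subunit, had 8, 3 and 5 counts in DNK and 7, 3 and 5 in CtrlK. Both rows overlapped between the groups, and their sum was 85.7 ± 12.7 CPM in DNK and 82.1 ± 36.3 CPM in CtrlK (SD, n = 3 each). Neither was tested, because too few libraries reached the count minimum.

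Among the oxygen sensors, EGLN2 and EGLN3 could be tested. EGLN3, a prolyl hydroxylase whose own gene is a HIF target in mammals, had 18, 20 and 8 counts in DNK, against 8, 12 and 9 in CtrlK. In CPM it averaged 93.2 ± 36.2 in DNK and 55.3 ± 9.53 in CtrlK (SD, n = 3 each), and DNK replicate 3 lay within the CtrlK range. Its log2 fold change was 0.75 ± 0.47 (SE, 95% interval -0.25 to 1.76), which did not pass (edgeR adjusted p = 0.351) and was -0.039 when libraries were scaled to their 200 most abundant genes. EGLN2 had 15, 18 and 12 counts in DNK, against 14, 17 and 19 in CtrlK. Its log2 fold change was -0.05 ± 0.43 (SE, 95% interval -0.96 to 0.86, edgeR adjusted p = 0.949). The sign depended on the scaling, with 0.085 when libraries were scaled to the reads in rows that name no gene. That interval leaves room for a change of nearly 2-fold, so equal levels were not shown.

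EGLN1, the prolyl hydroxylase that acts as the main oxygen sensor in mammals, was present as 3 rows that the name table does not tell apart. ENSDARG00000004632 had 5, 2 and 6 counts in DNK, against 13, 9 and 11 in CtrlK, so every DNK library lay below every CtrlK library. The depth-adjusted ratio was 0.423 (95% counting interval 0.204 to 0.825). The row had too few counts for the test, and with no filter its log2 fold change was -1.10 ± 0.68 (SE, edgeR adjusted p = 0.668). ENSDARG00000038996 had 7, 3 and 4 counts in DNK and 4, 3 and 2 in CtrlK, which overlapped. ENSDARG00000105156 had none in any library.

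Summed over the 5 prolyl hydroxylase rows, the level was 241 ± 41.8 CPM in DNK and 232 ± 14.8 CPM in CtrlK (SD, n = 3 each). The asparaginyl hydroxylase HIF1AN had 2, 1 and 6 counts in DNK and 6, 7 and 0 in CtrlK, with no separation of the groups. The row vhl (ENSDARG00000070617), the substrate receptor of the ubiquitin ligase, had 0 counts in all 6 libraries. Over each group's 3 libraries a count of 0 allowed up to 6.15 CPM in DNK and 5.73 CPM in CtrlK, so vhl was not detectable at this depth. Reads of near-identical copies and of overlapping genes may have been split or lost in the counting, which touches each row that shares its name with another.

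Across all genes, 270 of 3792 tested genes passed an adjusted p below 0.05 (7.12%), of which 179 were higher in DNK (4.72%) and 91 lower (2.40%). Higher genes were thus 66.3% of the calls. That split moved with the processing, to 31.1% with library size only, 5.10% with scaling to the 200 most abundant genes, 79.4% with scaling to reads in rows that name no gene, 76.5% with no filter, 77.0% by DESeq2 and 75% by limma-voom. Of the 3 tested members other than EPAS1, 0 passed by edgeR, DESeq2 or limma-voom. In edgeR 1 of the 3 was at an unadjusted p below 0.05, as were 942 of all 3792 tested genes. In 616 tested genes (16.2%) every DNK library lay above every CtrlK library, as in HIF1A, 1 of these 3 members, and in 553 (14.6%) every DNK library lay below. Among the 11 rows with counts that are not EPAS1, the depth-adjusted ratio of DNK to CtrlK counts was above 1 in 5 and below 1 in 6.

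Since EPAS1 was picked for its rise, its share of the family counts restates that choice and is given only as a description. The EPAS1 row ENSDARG00000057671 made up 85.4%, 86.0% and 83.4% of all family counts in the DNK libraries, against 64.1%, 66.1% and 76.1% in the CtrlK libraries. These are shares of counts and not of molecules, because no gene length was used. The means were 84.9% ± 1.37 in DNK and 68.8% ± 6.42 in CtrlK (SD, n = 3 each). The 13 family rows other than both EPAS1 rows summed to 517 ± 87.3 CPM in DNK and 510 ± 94.8 CPM in CtrlK (SD, n = 3 each), from 252 counts in DNK and 264 in CtrlK.

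Endothelial, endocardial and several other marker sums and the stress genes were also higher in every DNK library, and their part in the EPAS1 difference was not tested. Summed endothelial markers ranged from 2594 to 3165 CPM in DNK and from 1251 to 2098 CPM in CtrlK, and 1 of 8 tested endothelial markers, vwf, passed as higher. The log2 fold change was positive in all 8, against 46.9% of all tested genes. Its median was 0.78, against -0.07 over all tested genes. In the same list 1 CLDN5 row (ENSDARG00000043716) had 0 counts. Divided by the endothelial sum, EPAS1 was 1.05 ± 0.171 in DNK and 0.717 ± 0.150 in CtrlK (SD, n = 3 each), a ratio of 1.47 between the group means. The lowest DNK library (0.914) was just above the highest CtrlK library (0.883). Immediate-early and dissociation stress genes, which respond within minutes to handling of tissue, summed to 21044 to 32438 CPM in DNK and 7748 to 12147 CPM in CtrlK. In that list 4 of 18 tested genes passed as higher, hsp70.3, hsp70l, hsp70.1 and JUND, against 4.72% of all tested genes, and fosaa was at 0. Those 4 genes made up 88.6% ± 1.53 of the sum in DNK and 79.7% ± 3.27 in CtrlK (SD, n = 3 each). In this list the log2 fold change was positive in 15 of 18 tested genes and negative in 3, with a median of 0.995. Of these 18, 10 were at an unadjusted p below 0.05 (edgeR), against 942 of all 3792 tested genes. FOS, an immediate-early gene chosen after its values were seen, averaged 115 ± 22.2 CPM in DNK and 121 ± 35.9 CPM in CtrlK (SD, n = 3 each, edgeR adjusted p = 0.922). The other 21 rows of the list summed to 2588 to 3277 CPM in DNK and 1665 to 2131 CPM in CtrlK. Divided by the sum of the whole list, EPAS1 was 0.120 ± 0.0154 in DNK and 0.122 ± 0.0190 in CtrlK (SD, n = 3 each), and the groups overlapped.

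Markers of other cell types were also counted, beside a background in which 4.72% of all tested genes passed as higher and 2.40% as lower. Of all 3792 tested genes, 942 were at an unadjusted p below 0.05 (edgeR). Macrophage and neutrophil markers summed to 1999 to 2227 CPM in DNK and 855 to 1580 CPM in CtrlK. Of 6 tested genes, 0 passed by edgeR (3 at an unadjusted p below 0.05) and 0 by limma-voom. DESeq2, fitted to all rows without the edgeR filter on counts, called 1. The log2 fold change was positive in all 6 genes tested by edgeR, with a median of 0.96 against -0.07 over all tested genes. The rows lyz, mmp13a and 1 MFAP4 row (ENSDARG00000038683) were at 0. In this list 3 of 7 tested passed as higher without CtrlK replicate 3, and 2 of 6 with scaling to reads in rows that name no gene. Cardiomyocyte markers summed to 1245 to 1417 CPM in DNK and 970 to 1165 CPM in CtrlK, with atp2a2a higher among 6 tested and actc1b and 1 TNNT2 row (ENSDARG00000100694) at 0. Another TNNT2 row (ENSDARG00000020610) had 8, 37 and 23 counts in DNK and 44, 27 and 32 in CtrlK and did not pass (edgeR adjusted p = 0.525). The call of atp2a2a was lost whichever of the 6 libraries was left out. A row named ATP2A2 (ENSDARG00000005122) had 11, 0 and 3 counts in DNK and 9, 4 and 6 in CtrlK, too few to test. Fibroblast, mural and epicardial markers summed to 2226 to 2477 CPM in DNK and 1560 to 1908 CPM in CtrlK, with PDGFRB and COL1A2 higher among 11 tested and wt1b at 0. The log2 fold change was positive in 8 of these 11 and negative in 3. Erythrocyte markers summed to 123 to 224 CPM in DNK and 140 to 176 CPM in CtrlK, with none tested and hbaa2 at 0. Endocardial markers, the lining cells of the heart, summed to 2545 to 3380 CPM in DNK and 1385 to 2233 CPM in CtrlK. Of 6 tested, 0 passed by edgeR or limma-voom, with 2 at an unadjusted p below 0.05 in edgeR. DESeq2, again without the edgeR filter, called 0.

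Thrombocyte and lymphocyte markers went the other way, at 579 to 919 CPM in DNK and 1025 to 1525 CPM in CtrlK, with cd8a lower among 2 tested and cd79a at 0. Most of that sum came from 2 rows. THBS1 (ENSDARG00000010785) averaged 507 CPM in DNK and 698 CPM in CtrlK and did not pass (edgeR adjusted p = 0.412). The other, cd8a, averaged 162 CPM in DNK and 425 CPM in CtrlK. The EPAS1 level divided by each of these 6 sums was higher in every DNK library than in every CtrlK library. The ratio of its group means lay between 1.34 for macrophage and neutrophil markers and 4.46 for thrombocyte and lymphocyte markers. For macrophage and neutrophil markers the lowest DNK library (1.30) was just above the highest CtrlK library (1.29). Since EPAS1 was picked for its rise, these ratios and that to the endothelial sum are a description and no support for the rise. Of the 9 marker and stress genes that passed, 7 lost their call without at least 1 library, and the 2 that kept it were hsp70.3 and hsp70l.

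**Figure D2:**
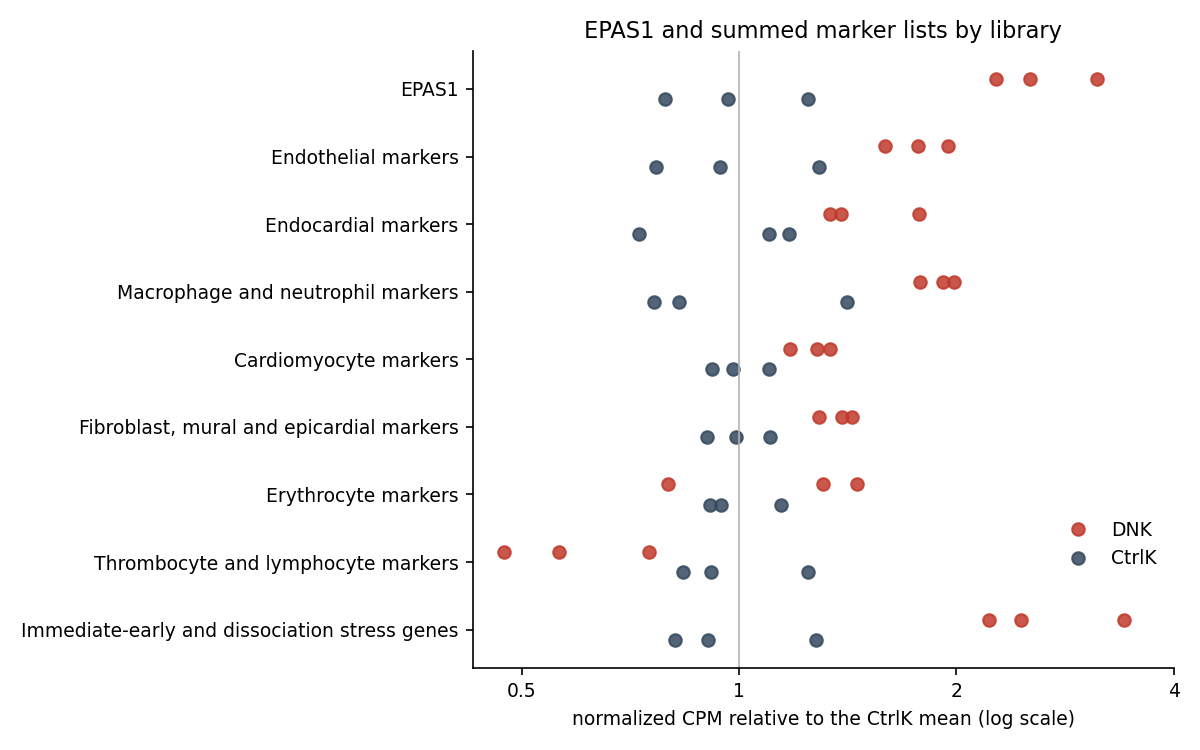
Normalized CPM of EPAS1 and of 8 summed marker lists in each library, divided by the CtrlK mean of the same item, on a log scale (DNK in red, above; CtrlK in dark blue, below). EPAS1 and the stress genes stand furthest to the right in DNK, while thrombocyte and lymphocyte markers stand to the left.

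The partners that act on HIF proteins were examined as 2 lists. Of the VHL ligase partners, 1 of 6 rows could be tested. ELOB (ENSDARG00000037980), part of the adaptor between VHL and its cullin, averaged 67.1 ± 29.5 CPM in DNK and 109 ± 6.66 CPM in CtrlK (SD, n = 3 each). It did not pass (log2 fold change -0.69 ± 0.47 SE, edgeR adjusted p = 0.388). A second row, elob (ENSDARG00000097471), had 0 counts. Of 13 tested co-activators and other modulators, 1 passed as higher and 0 as lower, against 4.72% and 2.40% of all tested genes. The median log2 fold change was 0.48 against -0.07 over all tested genes. The gene that passed was HSP90AA1, a chaperone that holds HIF alpha in a stable form, at 5324 ± 635 CPM in DNK and 2524 ± 727 CPM in CtrlK (SD, n = 3 each, log2 fold change 1.08 ± 0.26 SE, edgeR adjusted p = 0.0230). Its call was lost when any library other than CtrlK replicate 3 was left out, with adjusted p between 0.0534 and 0.104.

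Heat-shock genes stood among the stress genes that were higher in DNK. HSP90AA1 is itself heat-inducible, but whether its difference and theirs are linked was not tested. HSP90AB1, its constitutive counterpart, averaged 1591 ± 94.5 CPM in DNK and 836 ± 253 CPM in CtrlK (SD, n = 3 each, edgeR adjusted p = 0.0567). The co-activators NCOA3 and EP300 (ENSDARG00000100666) had log2 fold changes of 1.12 ± 0.33 and 0.95 ± 0.40 (SE) that did not pass (edgeR adjusted p = 0.0507 and 0.156).

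Other factors with the PAS fold were listed, most of them of the same bHLH-PAS class (PER3 is not) and in part sharing the ARNT partner. In this list 2 of 5 tested genes passed, against 7.12% of all tested genes. Of these, 1 passed as higher and 1 as lower, and the median log2 fold change was -0.39 (with scaling to the 200 most abundant genes, 0 were higher and 2 lower). The dioxin receptor ahr2 had 220, 271 and 188 counts in DNK, against 85, 101 and 108 in CtrlK. It was higher in DNK in every library, by a log2 fold change of 1.30 ± 0.27 (SE, edgeR adjusted p = 0.0124). Leaving out DNK replicate 2 ended that call (adjusted p = 0.0550). Its relative ahr1a had 4, 6 and 2 counts in DNK, against 27, 13 and 28 in CtrlK.

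The row ahr1a was lower in every DNK library, with a log2 fold change of -2.39 ± 0.55 (SE, edgeR adjusted p = 0.0193). It lost its call without DNK replicate 1, DNK replicate 3, CtrlK replicate 1 or CtrlK replicate 3 (adjusted p 0.0524 to 0.0857) and by limma-voom (0.121). CLOCK (ENSDARG00000011703), a PAS factor of the circadian clock, had 4, 14 and 6 counts in DNK and 18, 20 and 21 in CtrlK. It did not pass (edgeR adjusted p = 0.151). A second CLOCK row (ENSDARG00000003631) lay in the opposite direction, with 12, 6 and 14 counts in DNK and 5, 4 and 6 in CtrlK. That row had too few counts to test. PER3, another clock gene, differed by a log2 fold change of 0.28 ± 0.34 (SE, edgeR adjusted p = 0.644), a sign that turned with library size only (-0.037).

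Genes that HIFs are known to activate in mammals, and the zebrafish driver gene kdrl, were examined as 3 lists of 98 rows, of which 37 were tested. KDR, kdrl and tek stood both in the vascular target list and among the endothelial markers, so those lists are not independent. Of the 37 tested rows, 3 passed as higher and 0 as lower (8.11%), against 7.12% of all tested genes. That split turned to 1 higher and 5 lower with scaling to the 200 most abundant genes, and was 1 higher and 1 lower with library size only. Without CtrlK replicate 3 it was 5 higher and 0 lower, and without any other single library 1 higher and 0 lower. A positive log2 fold change was found in 27 of 37 (73.0%), against 46.9% of all tested genes, and the medians were 0.42 over the target lists and -0.07 over all tested genes. The share of targets that passed was thus near the background.

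Glycolytic enzymes held 2 of the 3 passing targets, out of 12 tested, where 7.12% of all tested genes passed. Their median log2 fold change was 0.60. The aldolase ALDOA had 4808, 4189 and 4426 counts in DNK, against 891, 1364 and 1621 in CtrlK, with no overlap. Its log2 fold change was 1.91 ± 0.23 (SE, edgeR adjusted p = 0.000799), and it passed without each library in turn (adjusted p 0.000417 to 0.0147). The pyruvate kinase PKM had 45, 58 and 60 counts in DNK and 21, 22 and 28 in CtrlK, a log2 fold change of 1.30 ± 0.34 (SE, edgeR adjusted p = 0.0324). Without any 1 library other than CtrlK replicate 3 it did not pass (adjusted p 0.0629 to 0.101).

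The hexokinase HK1 had 19, 12 and 11 counts in DNK and 5, 5 and 7 in CtrlK and did not pass (log2 fold change 1.39 ± 0.51 SE, edgeR adjusted p = 0.107). The glucose transporter slc2a3a lay in the opposite direction, with 19, 23 and 14 counts in DNK and 42, 47 and 27 in CtrlK (log2 fold change -0.96 ± 0.40 SE, edgeR adjusted p = 0.146).

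Vascular and secreted targets did not pass in either direction. Of 10 tested, 0 passed by edgeR or limma-voom, where 7.12% of all tested genes passed by edgeR. In edgeR 1 of the 10 was at an unadjusted p below 0.05, against 942 of all 3792 tested genes. DESeq2, fitted to all rows without the edgeR filter on counts, called 0. The median log2 fold change was 0.34. The secreted glycoprotein STC1 had 19, 14 and 12 counts in DNK and 3, 14 and 3 in CtrlK, where CtrlK replicate 2 (77.2 CPM) lay just under the lowest DNK library (77.6 CPM) and the row did not pass (edgeR adjusted p = 0.187). The VEGF receptors flt1 and KDR had log2 fold changes of -0.65 ± 0.34 and 0.79 ± 0.42 (SE, edgeR adjusted p = 0.254 and 0.261). The value of KDR was -0.026 with scaling to the 200 most abundant genes. No VEGFA row had enough counts to be tested.

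Of 15 other tested targets, 1 passed as higher and 0 as lower, against 4.72% and 2.40% of all tested genes. Their median log2 fold change was 0.36. MXI1, a repressor of the MYC network, had 38, 38 and 33 counts in DNK, against 8, 10 and 19 in CtrlK (log2 fold change 1.66 ± 0.42 SE, edgeR adjusted p = 0.0285). Its groups did not overlap, yet its call was lost when any library other than CtrlK replicate 3 was left out (adjusted p 0.0676 to 0.0887). The repressors BHLHE41 and BHLHE40 had log2 fold changes of 1.39 ± 0.42 and 1.84 ± 0.69 and did not pass (SE, edgeR adjusted p = 0.0597 and 0.111). The cyclin CCND1 differed by 1.11 ± 0.37 (SE, edgeR adjusted p = 0.0828). Without CtrlK replicate 3, which had the highest CtrlK counts of MXI1, BHLHE41 and CCND1, the list held 3 called genes in place of 1. Scaling to the 200 most abundant genes ended the calls of HSP90AA1, ahr2, PKM and MXI1 (edgeR adjusted p = 0.150, 0.134, 0.273 and 0.112). Library size only ended those of PKM and MXI1 (0.0776 and 0.0534).

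Across the 6 libraries, the genes most correlated with EPAS1 were mhc2daa (Pearson r = 0.998 on log2 CPM), f8 (0.997), DDX6 (0.996), FOSL1 (0.994) and COL1A2 (0.994). These correlations are a description over 6 libraries that fall into 2 groups and share each library's depth. Correlations of their deviations from the group means were 0.955 to 0.979, which the choice of genes by r over the same libraries largely fixes. The coagulation factor f8, which endothelial cells make, had 518, 456 and 357 counts in DNK, against 132, 140 and 212 in CtrlK. FOSL1 is a member of the AP-1 family, COL1A2 a collagen chain, DDX6 an RNA helicase of processing bodies, and mhc2daa an antigen-presenting molecule. Pearson r does not measure level or the size of a change. The row mhc2daa averaged 141 CPM in DNK and 82.1 CPM in CtrlK. Its log2 fold change was 0.78 ± 0.41, against 1.40 ± 0.27 for EPAS1 (SE).

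The size of the EPAS1 difference depended on how the libraries were scaled, while its direction, for which it was picked, did not. Its log2 fold change was 1.09 ± 0.24 with library size only and 0.61 ± 0.21 with scaling to the 200 most abundant genes (SE). The median of all tested genes moved by about as much, to -0.39 and -0.86. Relative to that median EPAS1 was higher by 1.48 on the log2 scale as reported and by 1.47 under both of these scalings. A change of scaling moves the log2 fold changes of all genes by nearly the same amount. That gap could therefore hardly change, and its constancy is no support for the rise. Its value was 1.46 ± 0.27 by DESeq2, 1.42 ± 0.25 by limma-voom and 1.52 ± 0.30 with scaling to reads in rows that name no gene (SE). With the share of reads assigned to genes as a covariate it was 0.55 ± 0.62 (SE). That share separated the groups completely, so its effect and that of the group cannot be told apart in 6 libraries.

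**Figure D3:**
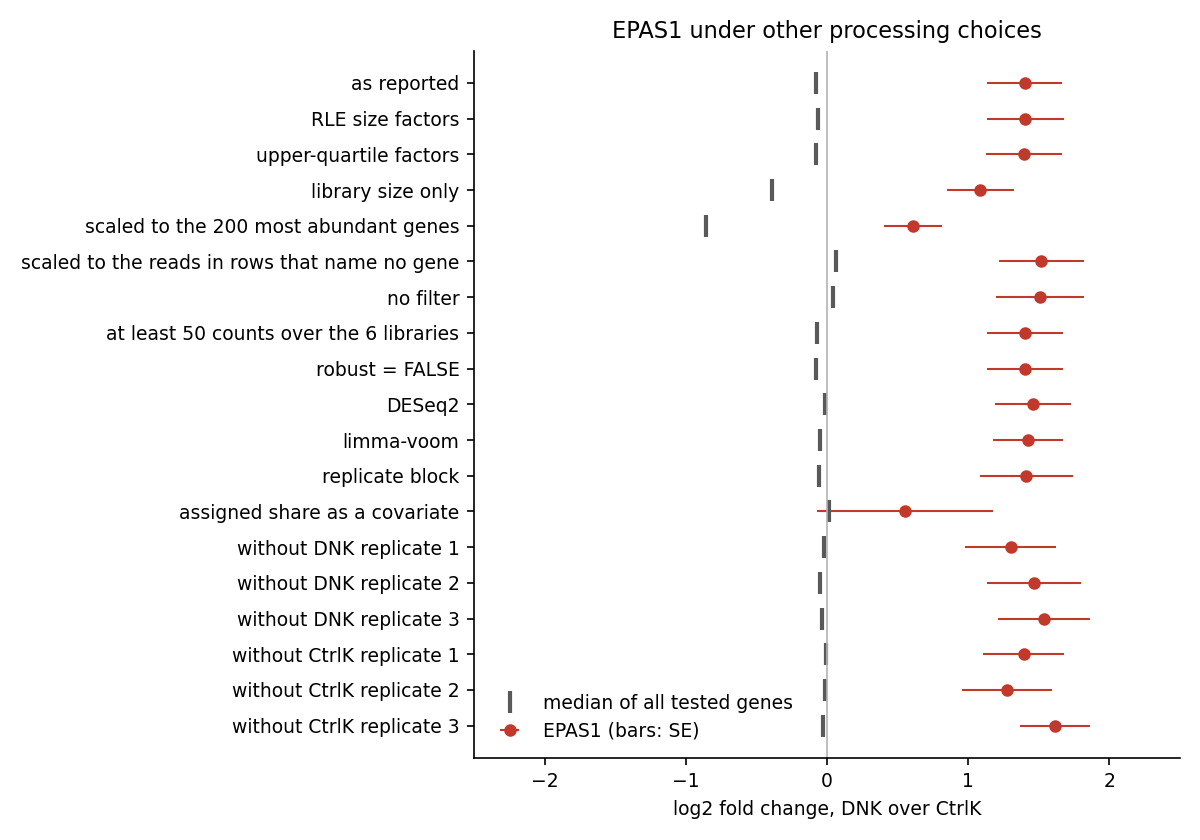
Log2 fold change of EPAS1, DNK over CtrlK, with its SE (red) as reported and under 18 other processing choices, beside the median log2 fold change of all tested genes (grey ticks). The values run from 0.55 to 1.62, and scaling to the 200 most abundant genes shifts EPAS1 (0.61) and the median (-0.86) together.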

How the data were processed

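The deposited tables hold raw counts, whole numbers of reads per Ensembl gene ID, 1 table per library, for 3 DNK and 3 CtrlK libraries. Per the labels, RNA was amplified by MALBAC and sequenced on a HiSeq2500. Per the submitters' processing notes, build GRCz11 and the tools HTSeq 0.6.1, DESeq2 1.22.2, HISAT2 2.1.0 and Trim Galore 0.6.0 were used, in roles that are not stated. Not given in the sources used here are the annotation release, the strand setting and the quality minimum. The protocol names no molecular identifiers, so reads are not independent molecules and intervals cover counting error only.

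Beside 32520 gene rows, the tables have 5 rows for reads given to no gene, which held 98.5% of all reads in DNK and 98.8% in CtrlK and were left out. The name table named 29201 IDs, of which 6136 share a name with another ID. Genes kept by filterByExpr (3792) were tested with edgeR 4.0.16 (TMM, glmQLFit with robust = TRUE, glmQLFTest, R 4.3.3) with group as the factor. Calls needed an adjusted p (Benjamini-Hochberg) below 0.05. SEs were obtained as |log2 fold change| over the root of F. Normalized CPM used TMM-scaled library sizes. Count ratios have exact 95% intervals.

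The biological coefficient of variation was 0.330. Tested on simulated counts (3894 genes fitted), the steps recovered 12.0% of 92 genes changed 2-fold and 78.7% of 94 changed 4-fold. There were 4 unchanged genes among 89 calls. The simulation gave every gene the same dispersion, so its recovery need not hold for the real counts. Chi-square tests of counts found no pair of libraries that agreed within sampling noise.

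The members and lists were chosen with earlier results of these data known. List symbols were matched by name with the copy letters of zebrafish genes. Named genes were all members, SMARCA4, kdrl, up to 4 tested genes of each partner or target list with the smallest p (1 of them is not reported here), and the 5 genes most correlated with EPAS1 on log2(CPM + 1). Of marker lists the called genes and those at 0 are named, the latter, and FOS and THBS1, chosen after their values were seen. Alternative settings were upper-quartile or RLE factors, library size only, scaling to the 200 most abundant genes or to reads in rows that name no gene, no filter, a filter of 50 counts in all, robust = FALSE, DESeq2 1.42.0, limma-voom (limma 3.58.1), a replicate block, the assigned share as a covariate, and leaving out each library. The limma-voom fit weighted each library by its estimated quality. DESeq2 was given all gene rows and applied its own filter, which left 4265 genes with an adjusted p.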

Additional observations from a re-analysis of the deposited data

Results flagged for a closer look

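The row for reads that overlap more than 1 gene, which no comparison above uses, held 0.0597% ± 0.00472 of all reads in DNK and 0.0374% ± 0.00785 in CtrlK (SD, n = 3 each). Every DNK library (0.0558% to 0.0649%) lay above every CtrlK library (0.0324% to 0.0465%). The share assigned to genes was also higher in every DNK library, at 1.48% ± 0.00638 against 1.15% ± 0.108 in CtrlK (SD, n = 3 each).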

How the results depend on the processing

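No HIF family member other than EPAS1 passed the test under any of the 18 alternatives. EPAS1 (no test) kept its sign in all of them. It was picked for its rise in these same libraries, so that sign is no support for the rise. Other counts moved by over 1.5 times, and the cause was not tested. With library size only, 112 genes were higher and 248 lower, and 1 glycolytic target passed. With scaling to the 200 most abundant genes, 55 were higher and 1024 lower, and the calls were lower for 1 ligase partner, 1 co-activator, 2 bHLH-PAS factors, 2 vascular, 2 glycolytic and 1 other target, and higher for 1 glycolytic target. With scaling to reads in rows that name no gene, 60 genes were lower and 2 co-activators passed. With no filter, 283 genes were higher. DESeq2, fitted to all rows without the edgeR filter, called 3 co-activators, and limma-voom called 46 lower genes, 2 co-activators and 1 bHLH-PAS factor. RLE factors gave 2 co-activators. Other targets passed in 3 cases with no filter, by DESeq2 and under the replicate block, and in 2 by limma-voom. With the assigned share as a covariate 1 gene was higher and 0 lower, with 217 at an unadjusted p below 0.05, and 0 listed genes passed. Leaving out each library gave 74 to 213 higher and 14 to 64 lower genes, 0 to 2 co-activators, 1 to 2 bHLH-PAS factors, 1 to 2 glycolytic and 0 to 3 other targets. With 1 library fewer the filter kept more genes, so the adjustment ran over more tests.

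Signs turned in these log2 fold changes, of which vwf had passed as reported and the others had not. SMARCA4 gave -0.29 with library size only, -0.73 with the 200 most abundant genes, -0.026 by limma-voom, -0.86 with the covariate and -0.28 to 0.26 without each library. PER3 gave -0.037 and -0.51 with the first 2 of these. With the 200 most abundant genes EGLN3 gave -0.039, kdrl -0.19 and KDR -0.026. EGLN2 gave 0.085 with reads in rows that name no gene, 0.062 with no filter, 0.0088 by DESeq2 and -0.14 to 0.092 without each library. With the covariate HSP90AB1 gave -0.24, slc2a3a 0.57, BHLHE41 -0.45, CCND1 -0.76, BHLHE40 -0.25 and vwf -0.049.

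Same-numbered libraries did not deviate together (r of -0.10, -0.01 and -0.04). With 3 libraries per group this cannot show whether the numbers pair samples, and the labels do not say that they do. The replicate block gave 169 higher and 84 lower genes and an EPAS1 log2 fold change of 1.41. In counts simulated at this depth, with the same dispersion for every gene, 2-fold changes were mostly not recovered. In the real counts 9 of the 13 members with counts had totals of 4 to 53 counts, too few to test.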
